A study of Saccharomyces cerevisiae with 22 samples.

Results

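The 10 genes followed here carry the synthesis and salvage of pyrimidine nucleotides in budding yeast, Saccharomyces cerevisiae. They were chosen by name, with earlier results of these data known, so their counts beside the shares of all probes are description, not a test. Each of URA2, URA4, URA1, URA5, URA10, URA6, URA7, URA8, FUR4 and FUR1 had a probe among the 5326 gene probes with a gene symbol on the array. Expression was profiled on 22 dual-colour arrays during 2 temperature shifts of the haploid strain BY4742, grown in synthetic complete medium with glucose. For heat shock, cells grown at 30 °C were pelleted and taken up in medium at 37 °C, and RNA was taken after 5, 15, 30, 45 and 60 min. For cold shock, cells grown at 37 °C were pelleted and taken up in medium at 30 °C, with samples at 0, 5, 15, 30, 45 and 60 min. A common reference of RNA from untreated BY4742 cells, whose growth temperature the labels do not give, was hybridised on every array. Each of the 11 conditions has 2 arrays: on array a the sample carried the dye Cy3 and on array b the dye Cy5. Heat shock times were set against the reference, since a heat shock sample at 0 min was not analysed here, and cold shock times were set against the cold shock sample at 0 min. Against the reference, and for cold shock against 0 min, the shift in temperature and the transfer to fresh medium cannot be told apart.

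Pyrimidine nucleotides are the U and C building blocks of RNA, and a yeast cell either makes them from glutamine, bicarbonate and aspartate or recovers them from uracil taken up from the medium. In the synthetic route Ura2 performs the first steps and is inhibited by the end product UTP, Ura4 and Ura1 make orotate, Ura5 and its isozyme Ura10 couple orotate to ribose phosphate, and Ura3 forms UMP. Ura6 then phosphorylates UMP, and the CTP synthetases Ura7 and Ura8 convert UTP to CTP. In salvage, the permease Fur4 imports uracil and Fur1 joins it to ribose phosphate, giving UMP directly. BY4742 lacks URA3, so the synthetic route is broken at its last step and the cells live on uracil from the medium. The activator Ppr1 raises transcription of URA1, URA3 and URA4 when intermediates of the route build up.

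Values are log2 ratios of sample over common reference, so that -1 is a halving, and a difference between 2 conditions is a difference of such ratios. A gene was called changed where limma gave a Benjamini-Hochberg adjusted p under 0.05 over all 5326 probes and the change exceeded 1.7-fold. The p-values rest on 2 arrays a condition and measure the spread between arrays, which may be technical, since the descriptions differ on whether the 2 arrays are separate cultures. In such bulk samples, less RNA of a gene per cell and fewer cells that express it cannot be told apart. The 2 arrays of a condition correlated at between 0.939 and 0.991 across probes, and between 91.8 and 97.6% of gene spots were above background in both channels. The URA3 and LEU2 probes, whose genes this strain lacks, had sample signals of 48.3 to 60.8 and 45.1 to 63.3 intensity units over a local background of 45.3 to 49.0 and 42.1 to 46.7. LYS2, also deleted in BY4742, was dim at 78.0 to 173 units but above background in both channels of all 22 arrays, and what its probe detects was not tested. MET17 and ADE2, which the strain keeps, gave at least 345 and 693 units. The α mating type genes MF(ALPHA)1, MF(ALPHA)2 and STE3 gave reference signals of at least 1349 units, and the a-type genes MFA1, STE2 and BAR1 at most 171. In the samples the α genes went down to 3510, 215 and 528 units, and the a-type genes reached 112, 261 and 137. All 10 pyrimidine genes were above background in both channels on all 22 arrays, and their brightest spot, at 18968 units, stayed below the limit of 32768 set for saturation.

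Within 15 min of heat shock the pyrimidine genes moved apart. The genes of the synthetic route URA2, URA4, URA1 and URA5 and the salvage gene FUR1 fell below the reference, the isozyme genes URA10 and URA8 rose above it, and UMP kinase URA6 stayed near it. At 15 min 5 of the 10 genes were called lower and 2 higher, against 9.35% lower and 8.92% higher of all probes tested. At 5 min 1 gene was lower and 1 higher, against 6.01% and 6.85% of all probes, and at 30 min 4 were lower and 3 higher, against 7.02% and 7.7%. At 45 and at 60 min the same 2 genes, URA1 and FUR1, were lower and none was higher, against 1.82% and 1.41% of all probes lower and 4.13% and 3.74% higher. The later counts depended on the scaling: median centring also called URA4 and URA5 lower at 45 and 60 min, external control scaling did so at 45 min, and median centring added URA5 and FUR1 at 5 min. URA5 was also called lower at 30 min with these scalings and with global loess. Over the 5 times 14 of 50 values were called lower, against 21 with median centring, 17 with external control scaling, 15 with global loess and 13 with the deposited log2 ratios. Of all probes, 320, 498, 374, 97 and 75 were called lower at the 5 times in the reported fit. These counts were 332, 610, 485, 270 and 260 with median centring. They were 328, 752, 520, 202 and 81 with external control scaling, and 327, 496, 373, 89 and 74 with global loess. Whether the added calls exceed this general shift was not tested. The median log2 change of the 10 genes over the 5 times was -0.40, -0.80, -0.38, -0.25 and -0.30. That of all probes never left 0 by more than 0.01, as the loess curve centres each array near 0.

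**Figure D1:**
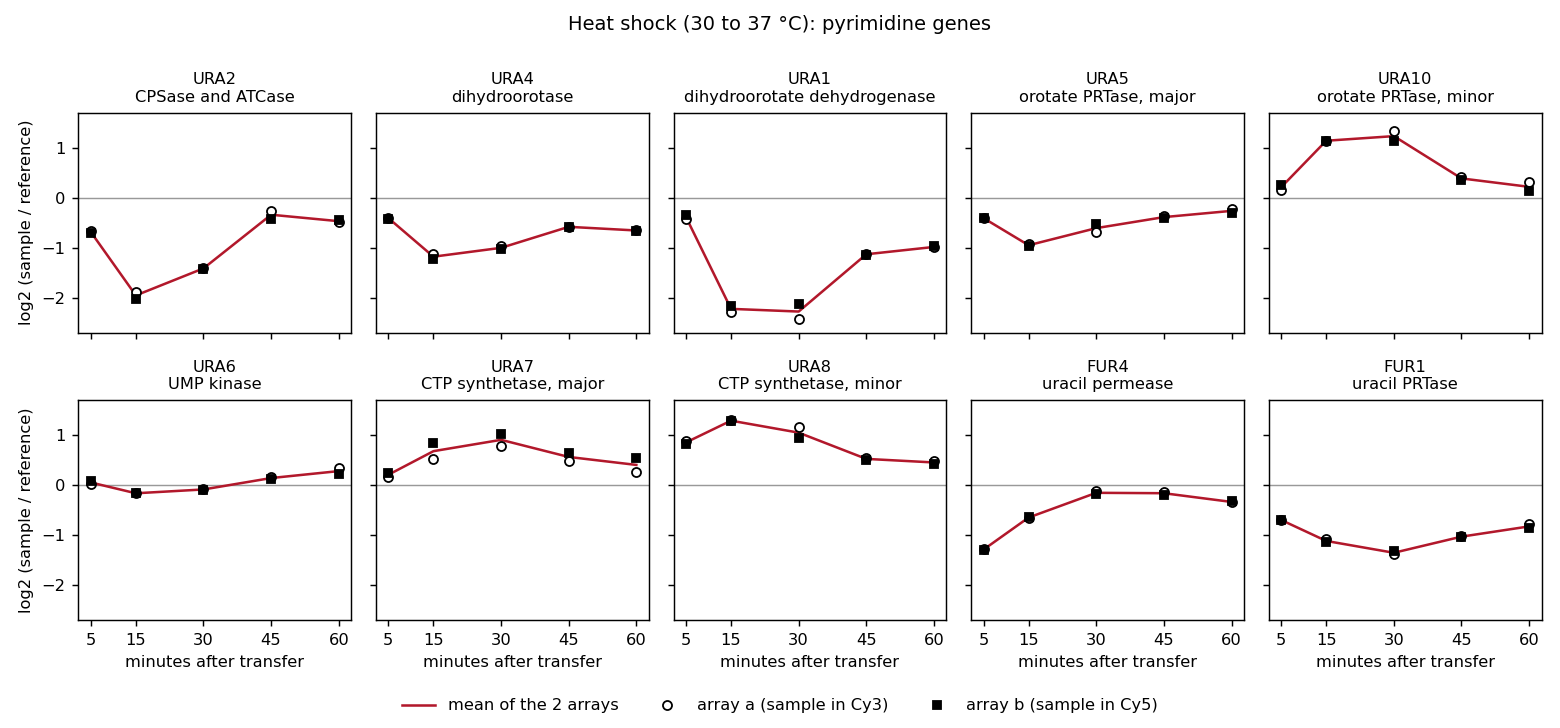
Log2 ratio of sample over common reference (vertical axis) at 5 to 60 min of heat shock (horizontal axis) for each of the 10 genes, with open circles for array a, filled squares for array b and a line through the mean of the 2 arrays. URA1 lies lowest, at means of -2.22 and -2.27 at 15 and 30 min, while URA8 and URA10 lie above 0 at all 5 times.

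URA2 encodes the large enzyme with the carbamoyl phosphate synthetase and aspartate transcarbamylase activities, the point of control of the route. Its log2 ratios on arrays a and b were -0.67 and -0.70 at 5 min, -1.88 and -2.03 at 15 min, -1.41 and -1.42 at 30 min, -0.27 and -0.42 at 45 min, and -0.49 and -0.45 at 60 min. All 10 values lay below 0, and the pair at 15 min lay below every other. The fall at 15 min was 3.87-fold (log2 change -1.95, standard error 0.05, adjusted p = 6.81e-15 from limma), the 39th lowest change of all 5326 probes, and at 30 min it was 2.66-fold (adjusted p = 5.27e-13). At 45 and 60 min URA2 stood at -0.34 and -0.47 and was not called. Its sign at 45 min depended on the scaling, with a range of -0.44 to 0.13 over 5 scalings, the highest with global loess.

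URA4 encodes dihydroorotase, which closes the ring of dihydroorotate. It gave log2 ratios of -0.40 and -0.42 at 5 min, -1.13 and -1.23 at 15 min, -0.97 and -1.03 at 30 min, -0.58 and -0.58 at 45 min, and -0.64 and -0.67 at 60 min. The arrays at 15 and 30 min were the lowest, with no overlap with the other times. URA4 fell 2.26-fold at 15 min (log2 change -1.18, standard error 0.03, adjusted p = 1.92e-14) and 2.00-fold at 30 min (adjusted p = 2.11e-13).

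URA1 encodes dihydroorotate dehydrogenase, the enzyme that oxidises dihydroorotate to orotate, and had the deepest fall of the 10 genes in this fit. Its log2 ratios were -0.43 and -0.34 at 5 min, -2.28 and -2.16 at 15 min, -2.43 and -2.12 at 30 min, -1.12 and -1.14 at 45 min, and -0.99 and -0.97 at 60 min. All arrays from 15 min on lay below those of 5 min, and those of 15 and 30 min overlapped each other. Before normalisation the heat shock sample gave 1308 and 1410 intensity units at 15 min on arrays a and b, against 10806 and 9114 units for the reference on the same spots. URA1 fell 4.66-fold at 15 min (log2 change -2.22, 95% confidence interval -2.32 to -2.12, adjusted p = 6.25e-16) and 4.84-fold at 30 min (-2.27, adjusted p = 9.16e-16). These changes ranked 18th and 10th lowest of all 5326 probes. It was still 2.19-fold lower at 45 min (adjusted p = 1.08e-11) and 1.98-fold lower at 60 min (adjusted p = 6.51e-11). As a bright probe URA1 depended in size on the scaling, and its log2 change at 15 min lay between -3.17 and -2.17 over 5 ways of scaling the arrays.

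The orotate phosphoribosyltransferase step is carried by a pair of isozymes, of which Ura5 provides most of the activity in growing cells and Ura10 the remainder. URA5 had log2 ratios of -0.41 and -0.41 at 5 min, -0.93 and -0.97 at 15 min, -0.69 and -0.53 at 30 min, -0.37 and -0.41 at 45 min, and -0.22 and -0.31 at 60 min. It was below 0 on all 10 arrays and lowest at 15 min, when it fell 1.93-fold (log2 change -0.95, standard error 0.03, adjusted p = 3.26e-13). With the deposited log2 ratios this change was -0.76 and short of the 1.7-fold limit, and with median centring in place of the loess curve URA5 was called lower at all 5 times.

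URA10 went the other way. Its log2 ratios were 0.16 and 0.25 at 5 min, 1.13 and 1.14 at 15 min, 1.32 and 1.13 at 30 min, 0.41 and 0.35 at 45 min, and 0.30 and 0.13 at 60 min. The arrays of 15 and 30 min stood clear above those of the other 3 times. The URA10 probe was dim, at 314 and 334 intensity units in the sample at 15 min against 132 and 118 units in the reference. URA10 rose 2.20-fold at 15 min (log2 change 1.14, standard error 0.04, adjusted p = 7.23e-13) and 2.34-fold at 30 min (1.23, adjusted p = 4.19e-13).

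The unequal change of the 2 isozyme genes was tested directly, as the difference of their log2 ratios within each array. URA10 minus URA5 was 0.57 and 0.66 at 5 min, 2.06 and 2.11 at 15 min, 2.01 and 1.66 at 30 min, 0.79 and 0.76 at 45 min, and 0.52 and 0.44 at 60 min. All 10 differences were above 0, and those of 15 and 30 min were the largest, with no overlap with the rest. At 15 min the ratio of URA10 to URA5 was higher than in the reference by 2.09 on the log2 scale (standard error 0.06, adjusted p = 1.54e-14 over 5328 rows), and it was also called higher at 30 min (1.84, adjusted p = 1.1e-13) and 45 min (0.77, adjusted p = 9.72e-09). Without array a of 45 min the last of these was 0.75 and under the fold limit, and with median centring or external control scaling, both chosen for the pairs after seeing the data, the pair was called at all 5 times. The coding sequences of such isozymes are related, and how far their probes share signal was not tested.

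**Figure D2:**
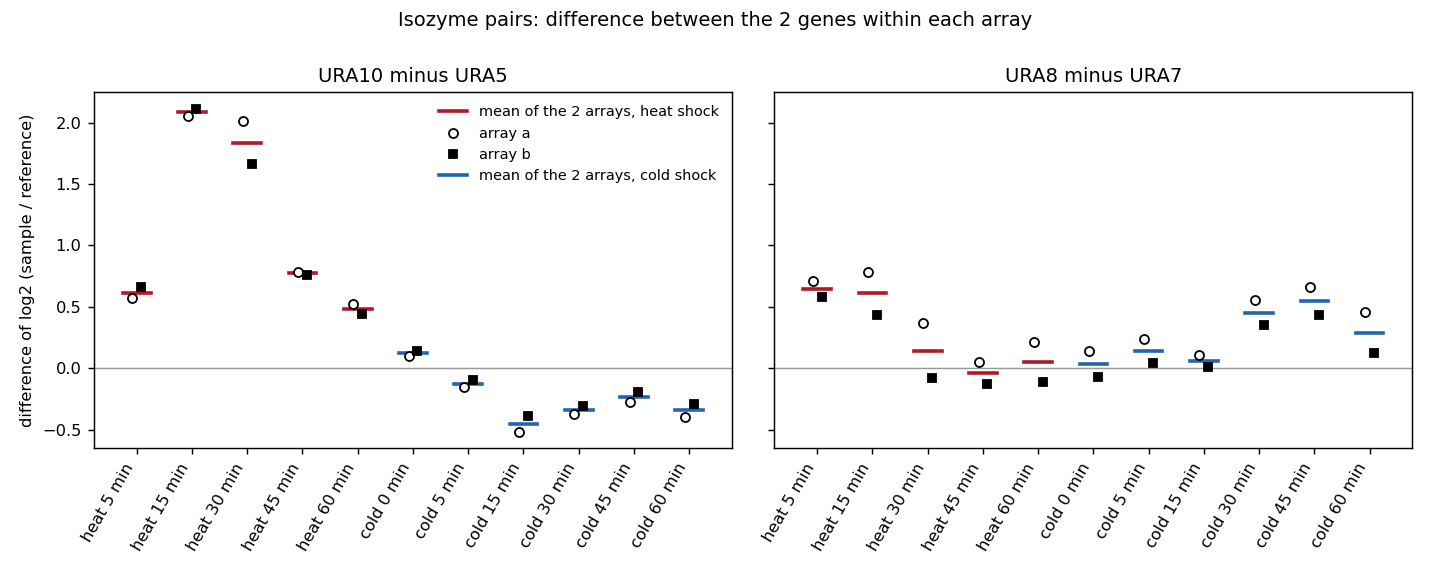
Difference of log2 ratios between the 2 genes of an isozyme pair (vertical axis) in each of the 11 conditions (horizontal axis), with open circles for array a, filled squares for array b and a bar at their mean. URA10 minus URA5 reaches a mean of 2.09 at 15 min of heat shock, and URA8 minus URA7, as normalised by print-tip loess, stays between -0.13 and 0.79 on every array.

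URA6, the kinase that turns UMP into UDP, was the 1 gene of the 10 called in none of the 14 comparisons. In heat shock its log2 ratios ran between -0.16 at 15 min and 0.33 on array a at 60 min. The fitted values at the 5 times were 0.05, -0.16, -0.09, 0.14 and 0.28, each with a standard error of 0.03.

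The CTP synthetases are again a pair, with Ura7 the major and Ura8 the minor enzyme. URA8 had log2 ratios of 0.88 and 0.83 at 5 min, 1.30 and 1.27 at 15 min, 1.15 and 0.95 at 30 min, 0.54 and 0.51 at 45 min, and 0.48 and 0.43 at 60 min. All 10 arrays were above 0, highest at 15 min. It rose 1.81-fold at 5 min (adjusted p = 2.75e-11), the 1 rise called at that time, 2.44-fold at 15 min (log2 change 1.29, standard error 0.04, adjusted p = 1.2e-13) and 2.07-fold at 30 min (adjusted p = 2.11e-12).

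URA7, the brightest probe of the 10, gave log2 ratios of 0.17 and 0.25 at 5 min, 0.52 and 0.84 at 15 min, 0.79 and 1.02 at 30 min, 0.49 and 0.64 at 45 min, and 0.27 and 0.54 at 60 min. It was called higher at 30 min alone (1.87-fold, log2 change 0.91, standard error 0.04, adjusted p = 5.67e-12). The direction of URA7 in heat shock depended on the scaling. With median centring and no curve the change at 30 min was -0.26 (adjusted p = 0.00768), with scaling on external control spots it was -0.27 (adjusted p = 0.162), and both settings turned the sign at the other 4 times too. With global loess the change at 30 min was 0.48 (adjusted p = 1.39e-09), under the fold limit, so the call was lost there as well. The external control probes end at a log2 intensity of 10.8, below the mean of 13.5 of the URA7 probe. The probes of URA1, URA5, FUR1, URA2 and URA4 also had means above this end, from 12.67 for URA1 to 11.04 for URA4. Values of these genes with external control scaling, like those of URA7, thus rest on mean intensities that the controls do not cover.

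URA8 minus URA7 within arrays was 0.71 and 0.58 at 5 min, 0.79 and 0.43 at 15 min, and 0.37 and -0.08 at 30 min. The difference at 15 min was 0.61 (standard error 0.05, adjusted p = 6.98e-09 over 5328 rows), which is under the 1.7-fold limit, and the pair was called at no heat shock time in this fit. At 45 and 60 min the fitted differences were -0.04 and 0.05, with adjusted p of 0.481 and 0.374. As for URA7 itself, this rested on the scaling, in alternatives chosen after seeing the data. With median centring the difference was 1.09, 1.30, 1.10, 0.86 and 0.85 at the 5 times, all past the fold limit, and with external control scaling it was 0.92, 1.36, 1.04 and 0.88 at 5 to 45 min, also called, and 0.76 at 60 min, under the limit.

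Both salvage genes fell in heat shock, at different times. FUR4, the uracil permease of the plasma membrane, had log2 ratios of -1.28 and -1.29 at 5 min, -0.65 and -0.64 at 15 min, -0.12 and -0.18 at 30 min, -0.13 and -0.19 at 45 min, and -0.34 and -0.32 at 60 min. The 5 min arrays lay lowest and apart from all later ones. FUR4 was called at 5 min alone, with a 2.44-fold fall (log2 change -1.29, standard error 0.03, adjusted p = 3.48e-15), when URA1 stood at -0.39 and URA2 at -0.68, neither of them called.

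FUR1, the uracil phosphoribosyltransferase, had log2 ratios of -0.69 and -0.70 at 5 min, -1.08 and -1.14 at 15 min, -1.38 and -1.32 at 30 min, -1.02 and -1.03 at 45 min, and -0.78 and -0.86 at 60 min. It was lowest at 30 min, with a 2.55-fold fall (log2 change -1.35, standard error 0.03, adjusted p = 6.04e-15). It fell 2.16-fold at 15 min, 2.04-fold at 45 min and 1.77-fold at 60 min, and at 60 min its log2 change of -0.82 was the 63rd lowest of 5326 probes (adjusted p = 8.48e-12).

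Heat shock at 60 min was then set against 15 min, a comparison in which the common reference cancels. Of the 10 genes 2 were called higher and 2 lower at 60 min, against 5.65% and 5.09% of all probes. URA2 was higher at 60 min than at 15 min by 1.48 on the log2 scale (standard error 0.07, adjusted p = 8.15e-11) and URA1 by 1.24 (standard error 0.07, adjusted p = 2.81e-10). URA10 was lower at 60 min by -0.92 (adjusted p = 2.87e-09) and URA8 by -0.83 (adjusted p = 6.76e-09). URA8 lost this call with global loess, median centring and external control scaling, and URA10 with external control scaling. For the others the 60 min minus 15 min differences were 0.69 for URA5, 0.52 for URA4, 0.44 for URA6, 0.31 for FUR4, 0.29 for FUR1 and -0.27 for URA7. FUR1 was called lower than the reference at both times.

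The culture grown at 37 °C before the cold shift, the cold shock sample at 0 min, shows which genes differ from the reference without a recent rise in temperature. Its 2 called genes were URA4 and URA1, both lower, against 1.16% of all probes lower and 2.22% higher. URA4 had log2 ratios of -1.38 and -1.42 (2.64-fold lower, standard error 0.03, adjusted p = 3.84e-14). URA1 had -1.42 and -1.39 (2.65-fold lower, standard error 0.05, adjusted p = 1.94e-12). They were the 14th and 13th lowest of 5326 probes. The remaining 8 genes lay between -0.33 for FUR1 and 0.36 for URA6, and URA2, the gene at the head of the route, stood at -0.07 and -0.31 on arrays a and b. The growth temperature of the reference is not given, and differences from it in culture other than temperature were not tested.

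Set directly against the 37 °C culture, heat shock at 60 min differed in none of the 10 genes by the criterion used, against 1.37% of all probes higher and 0.357% lower. The largest of the uncalled log2 differences were 0.74 for URA4 (95% confidence interval 0.64 to 0.85, adjusted p = 2.19e-08), -0.49 for FUR1 (-0.59 to -0.39) and 0.42 for URA1 (0.28 to 0.57). URA4 passed the fold limit with the deposited log2 ratios, at 0.77 (adjusted p = 1.21e-08), and with external control scaling, at 0.84 (adjusted p = 0.00857). In the reported fit all 10 differences were under 1.7-fold, and 7 had an adjusted p under 0.05, where 44.7% of all probes did.

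After pelleting and transfer to medium at 30 °C the same first genes of the route rose. Over the 5 cold shock times the 10 genes gave 16 calls higher and 3 lower of 50, where heat shock had given 6 higher and 14 lower of 50. At 5 min 3 genes were higher and none lower, against 2.93% and 3.21% of all probes, and at 15 min 4 were higher and none lower, against 2.67% and 5.5%. At 30 min 4 were higher and 1 lower, against 1.43% and 4.43%, at 45 min 3 and 1, against 1.05% and 4.17%, and at 60 min 2 and 1, against 0.845% and 3.51%. The higher genes were URA1, URA2, URA4 and FUR4, and the lower one at all 3 times was URA7.

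**Figure D3:**
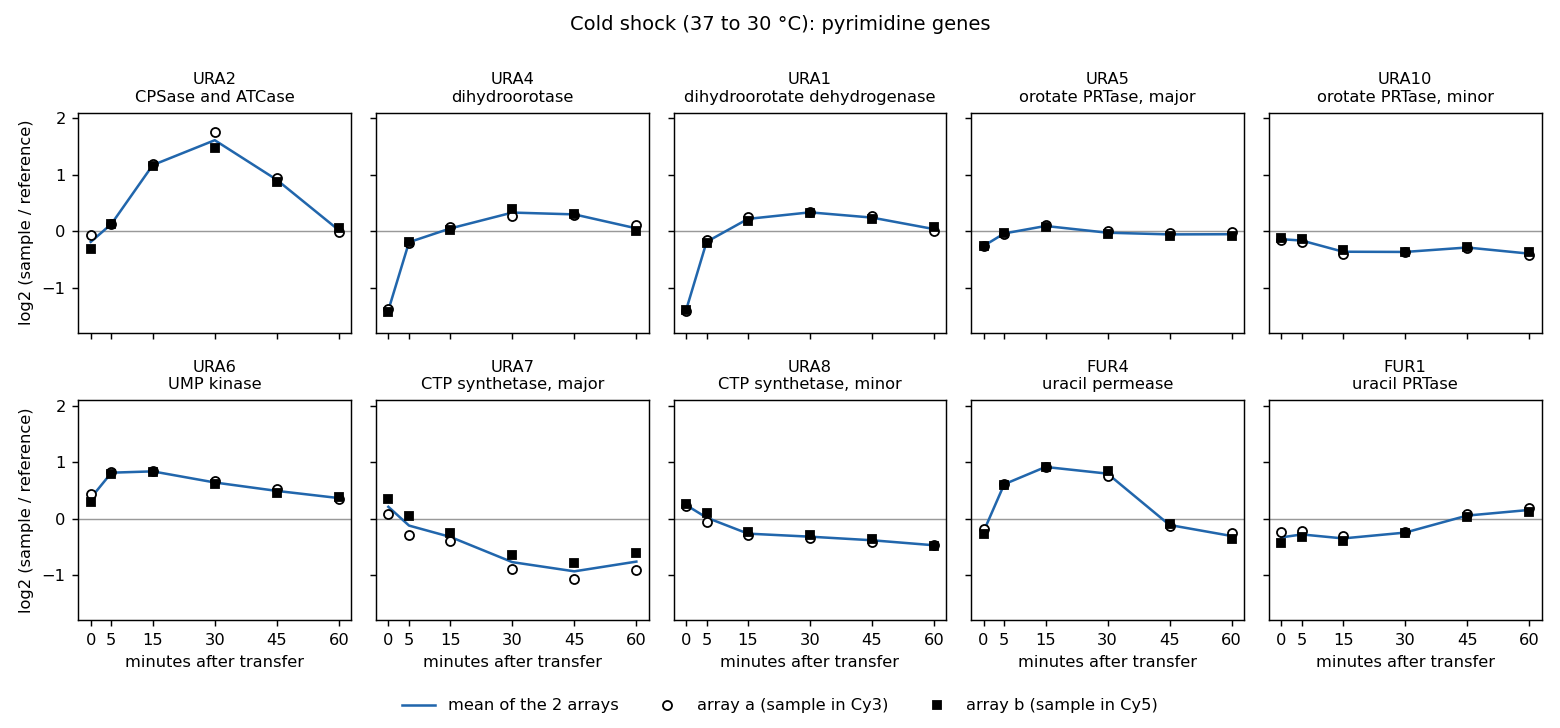
Log2 ratio of sample over common reference (vertical axis) at 0 to 60 min after transfer from 37 to 30 °C (horizontal axis) for the 10 genes, with open circles for array a, filled squares for array b and a line through their mean. URA4 and URA1 leave a mean near -1.40 at 0 min and come to 0.05 and 0.04 at 60 min, while URA2 passes through 1.61 at 30 min.

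URA4 had log2 ratios over the reference of -1.38 and -1.42 at 0 min, -0.21 and -0.19 at 5 min, 0.08 and 0.02 at 15 min, 0.27 and 0.39 at 30 min, 0.29 and 0.30 at 45 min, and 0.10 and -0.01 at 60 min. Every array after the shift was above both arrays of 0 min. Against 0 min URA4 was 2.30-fold higher at 5 min (log2 difference 1.20, standard error 0.05, adjusted p = 2.18e-11), 3.31-fold at 30 min (1.73, adjusted p = 2.2e-13) and 2.73-fold at 60 min (1.45, adjusted p = 2.71e-12).

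URA1 followed closely, with log2 ratios of -1.42 and -1.39 at 0 min, -0.16 and -0.22 at 5 min, 0.25 and 0.19 at 15 min, 0.34 and 0.32 at 30 min, 0.26 and 0.22 at 45 min, and 0.00 and 0.07 at 60 min. All 10 arrays after the shift lay more than 1 log2 unit above those of 0 min. It was 2.33-fold higher than at 0 min after 5 min (log2 difference 1.22, standard error 0.07, adjusted p = 7.07e-10) and 3.34-fold higher after 30 min (1.74, adjusted p = 8.9e-12). URA1 and URA4 were the 5th and 10th highest of all 5326 probes at 15 min, and both were called at all 5 times.

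URA2 rose later and came back, with log2 ratios of -0.07 and -0.31 at 0 min, 0.13 and 0.12 at 5 min, 1.19 and 1.15 at 15 min, 1.75 and 1.47 at 30 min, 0.94 and 0.88 at 45 min, and -0.02 and 0.06 at 60 min. The 6 arrays from 15 to 45 min were above all others, and those of 60 min lay beside the reference. Against 0 min the rise was 2.57-fold at 15 min (log2 difference 1.36, standard error 0.07, adjusted p = 3.08e-10), 3.48-fold at 30 min (1.80, adjusted p = 1.34e-11) and 2.14-fold at 45 min (1.10, adjusted p = 5.14e-09). The difference at 60 min was 0.21 (adjusted p = 0.0223) and was not called. At 5 min it was 0.32 and not called in this fit. The 5 min difference was called with median centring (0.81, adjusted p = 6.16e-05) and with external control scaling (0.77, adjusted p = 0.0146). How late the rise of URA2 began thus depended on the scaling.

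FUR4 had a shorter rise, through log2 ratios of -0.18 and -0.28 at 0 min, 0.61 and 0.60 at 5 min, 0.91 and 0.92 at 15 min, 0.76 and 0.84 at 30 min, -0.13 and -0.09 at 45 min, and -0.26 and -0.35 at 60 min. The 5, 15 and 30 min arrays stood apart from those of 0, 45 and 60 min. It was 1.79-fold higher than at 0 min after 5 min (adjusted p = 3.48e-10), 2.21-fold after 15 min (log2 difference 1.15, standard error 0.04, adjusted p = 8.04e-12) and 2.04-fold after 30 min (adjusted p = 2.43e-11).

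URA7 was lower after cold shock, through log2 ratios of 0.08 and 0.34 at 0 min, -0.30 and 0.05 at 5 min, -0.40 and -0.25 at 15 min, -0.89 and -0.64 at 30 min, -1.07 and -0.79 at 45 min, and -0.91 and -0.60 at 60 min. Array b was above array a at all 6 times, and the arrays from 15 min on did not overlap those of 0 min. Against 0 min URA7 was 1.97-fold lower at 30 min (log2 difference -0.98, standard error 0.06, adjusted p = 9.69e-10), 2.21-fold lower at 45 min (-1.14, adjusted p = 1.7e-10) and 1.96-fold lower at 60 min (-0.97, adjusted p = 1.46e-09). These calls too depended on the scaling: global loess kept the one at 45 min and median centring and external control scaling none, with differences at 60 min of -0.76, -0.28 and -0.08.

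The other 5 genes were called at none of the cold shock times against 0 min in this fit. URA8 differences were -0.22, -0.51, -0.56, -0.63 and -0.71 on the log2 scale at 5, 15, 30, 45 and 60 min, each with a standard error of 0.06. URA10, whose ratio to URA5 was raised in heat shock, had differences between -0.26 and -0.02, and URA5 between 0.21 and 0.35. URA6 was at 0.45 and 0.47 at 5 and 15 min and at 0.00 at 60 min. FUR1 was at 0.05 at 5 min and at 0.49 at 60 min (95% confidence interval 0.38 to 0.59). Some of these values passed the limit under another scaling. URA8 was called lower at 60 min with global loess (-0.79) and median centring (-0.77), and with external control scaling URA5 was called higher at 15 and 60 min (0.78 and 0.87) and FUR1 at 60 min (0.92).

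At 60 min of cold shock none of the 10 genes was called against the common reference, where 1.82% of all probes were lower and 0.657% higher. URA1, URA2, URA4 and URA5 were within 0.06 of the reference, with 95% confidence intervals that all included 0. The farthest was URA7, at -0.76 (1.69-fold lower, adjusted p = 4.07e-10), just short of the fold limit and past it, at -0.80, without array b of 60 min.

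**Figure D4:**
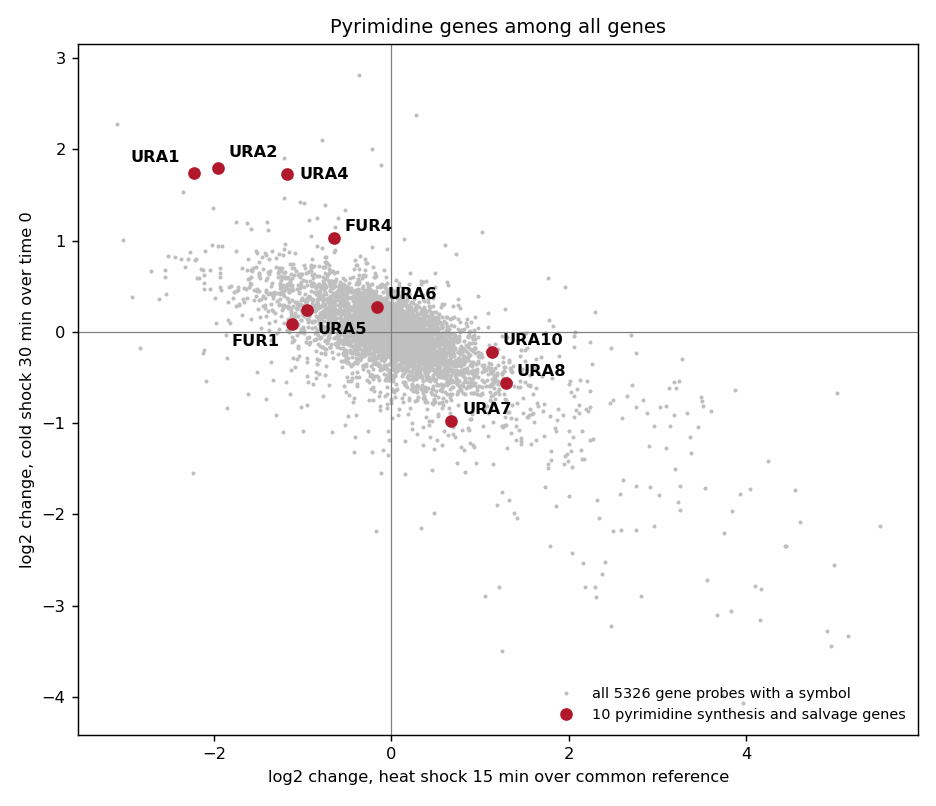
Log2 change at 15 min of heat shock over the common reference (horizontal axis) against log2 change at 30 min of cold shock over 0 min (vertical axis), with a grey point for each of the 5326 gene probes with a symbol and red points for the 10 genes. URA1, URA2 and URA4 lie at the upper left, at -2.22 and 1.74, -1.95 and 1.80, and -1.18 and 1.73, and URA7, URA8 and URA10 at the lower right of the centre.

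Across the 11 conditions some of the 10 genes ran together and others opposite. The fitted log2 ratios of URA4 and URA1 correlated at r = 0.92, of URA2 and URA5 at 0.91 and of URA10 and URA8 at 0.93, while URA5 and URA10 correlated at -0.93 and URA1 and URA8 at -0.87. FUR4 was the least like the rest, with r between -0.62 and 0.81. These coefficients describe 11 conditions that share a reference and form 2 time courses, and carry no test. Of the 5007 other genes well above background on all arrays, those most like URA8 were IRC4 (r = 0.994), AGX1 (r = 0.994), which encodes alanine-glyoxylate aminotransferase, and DOG1 (r = 0.991), which encodes a 2-deoxyglucose-6-phosphate phosphatase. Those most like URA1 were SES1 (r = 0.988), ILS1 (r = 0.981) and ALA1 (r = 0.975), which encode the cytoplasmic seryl-, isoleucyl- and alanyl-tRNA synthetases.

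A list of further pyrimidine genes, 18 of them measured, was read alongside. In heat shock 4 of 18 were lower and none higher at 5 min, 3 lower at 15 min, 1 lower at 30 min, and 1 higher at each of 45 and 60 min. Their median log2 change was -0.50 at 5 min and -0.38 at 15 min. In cold shock 1 was higher and 1 lower at 5 min, 1 higher and 3 lower at 15 min, 1 higher and 1 lower at 30 min, and 1 lower at each of 45 and 60 min. Of all probes 6.01, 9.35 and 7.02% were lower at 5, 15 and 30 min of heat shock, and 4.13 and 3.74% higher at 45 and 60 min. In cold shock 2.93, 2.67 and 1.43% were higher at 5, 15 and 30 min, and 3.21, 5.5, 4.43, 4.17 and 3.51% lower at the 5 times. A count of 1 of 18 is 5.56%, and whether such counts differ from these shares was not tested.

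FUI1 encodes the uridine permease, a relative of Fur4, and it had the time course of FUR4 in outline. Its log2 ratios were -1.23 and -1.29 at 5 min of heat shock (2.40-fold lower, adjusted p = 4.75e-11). After cold shock they were 0.87 and 1.15 at 5 min, 1.08 and 1.28 at 15 min and 0.72 and 1.10 at 30 min, against -0.34 and -0.33 at 0 min. The rises over 0 min were 1.35, 1.51 and 1.25 on the log2 scale (adjusted p = 8.11e-09, 1.5e-09 and 1.9e-08). How far the FUI1 and FUR4 probes share signal was not tested. URK1, the uridine kinase of nucleoside salvage, fell 2.35-fold at 5 min of heat shock (log2 ratios -1.31 and -1.15, adjusted p = 1.32e-14) and 2.03-fold at 15 min (-1.01 and -1.03). PPR1, the activator of URA1 and URA4, was 1.71-fold lower at 5 min of heat shock (log2 change -0.77, adjusted p = 1.25e-12) and called at no other time. This change lay just past the fold limit. The PPR1 probe was dim, at 85.7 and 104 units in that sample over a background of 43.7 to 48.5. How the calls of the 18 further genes depend on the scaling is not given here. FCY21, a relative of the cytosine permease gene FCY2, was lower at 5, 15 and 30 min of heat shock, by 1.90, 2.09 and 1.72-fold, and DUT1, the dUTP pyrophosphatase, was 1.78-fold lower at 15 min.

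**Figure D5:**
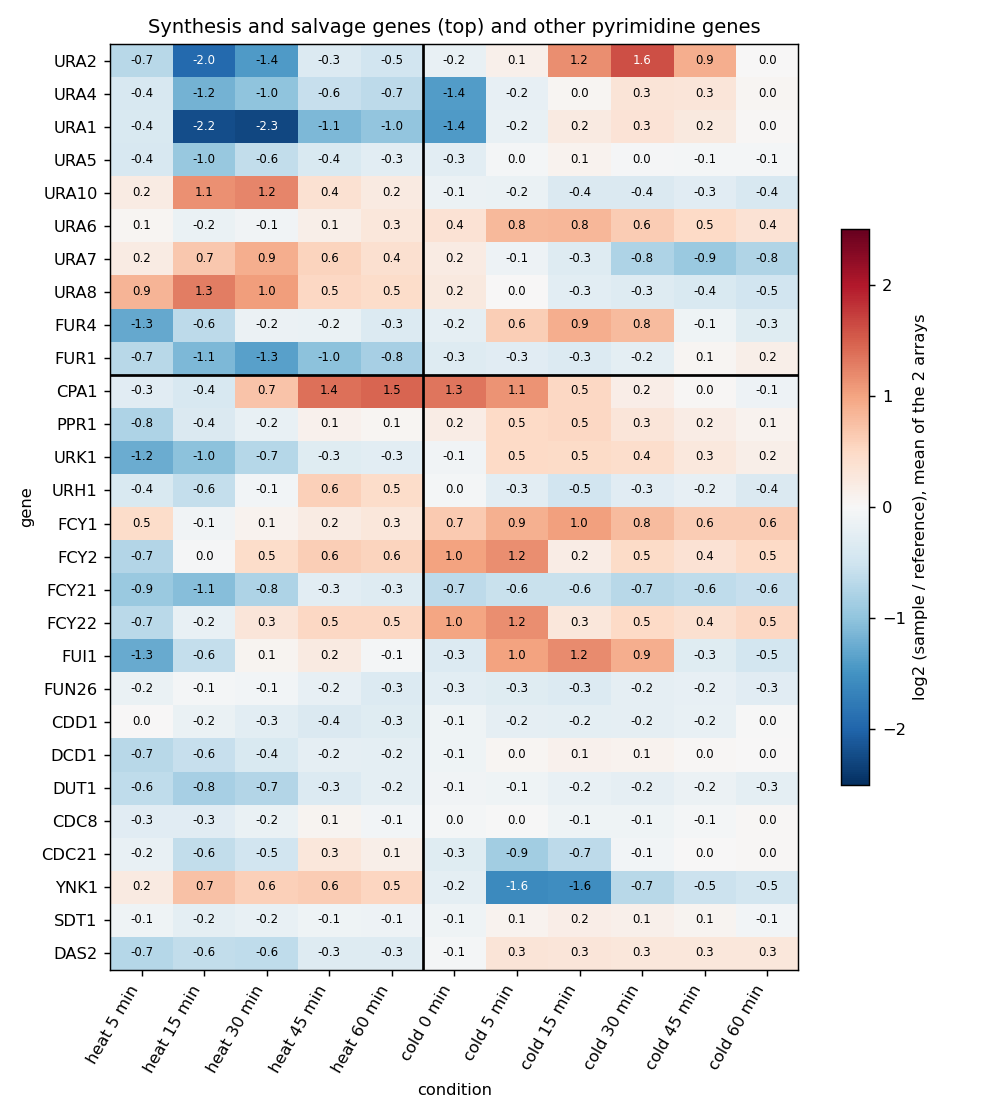
Mean log2 ratio over the common reference of the 2 arrays of each condition (columns) for the 10 synthesis and salvage genes (above the line) and the 18 other pyrimidine genes (below it), blue for lower and red for higher than the reference. CPA1 is the brightest red of the lower block, at 1.45 at 60 min of heat shock and 1.33 in the 37 °C culture.

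CPA1 encodes the small subunit of the arginine pathway carbamoyl phosphate synthetase, which makes the same intermediate as Ura2. Its log2 ratios were -0.37 and -0.44 at 15 min of heat shock and 1.44 and 1.47 at 60 min, and in the 37 °C culture they were 1.21 and 1.44. It was 2.59-fold higher than the reference at 45 min of heat shock (adjusted p = 1.74e-11) and 2.74-fold at 60 min (adjusted p = 1.02e-11), and 2.51-fold higher in the 37 °C culture (adjusted p = 5.17e-11). Between 15 and 60 min of heat shock it differed by 1.86 on the log2 scale, higher at 60 min (adjusted p = 4.53e-11). After cold shock it was lower than at 0 min from 15 min on, by -0.82, -1.16, -1.31 and -1.46 at 15, 30, 45 and 60 min, the last with an adjusted p of 1.51e-09. URA2 and CPA1 stood on opposite sides of their baselines in cold shock at 15 to 45 min.

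YNK1, the nucleoside diphosphate kinase that makes UTP from UDP, was at -1.66 and -1.54 at 5 min and -1.48 and -1.62 at 15 min of cold shock, against -0.25 and -0.23 at 0 min. It was 2.57-fold and 2.49-fold lower than at 0 min (adjusted p = 5.34e-10 and 5.43e-10), in the same minutes in which URA1 and URA4 were higher. Heat shock at 60 min was 1.71-fold above the 37 °C culture for YNK1 (adjusted p = 1.03e-06). The permease gene FCY2 was 2.00-fold and its close copy FCY22 1.99-fold above the reference in the 37 °C culture, and how far the probes of these related genes share signal was not tested. FCY2 was also 1.75-fold lower at 15 min of cold shock than at 0 min. URH1, the uridine hydrolase, was 2.09-fold higher at 60 min than at 15 min of heat shock (adjusted p = 8.15e-11).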

How the data were processed

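Spot intensities and log2 ratios were used. The authors scanned the arrays and extracted them with Imagene, and deposited for each spot, in both channels, a mean intensity and a local background. The authors' deposited log2 ratios, made by print-tip loess with span 0.4 and a gene-specific dye correction, served as an alternative; they had the opposite sign on 3 arrays and these were turned. The authors' comparison table of fold changes and p-values was not used, and the submitters' notes name limma 2.12.0.

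In R 4.3.3 with limma 3.58.1, log2 ratios were computed by print-tip loess (48 blocks, span 0.4, no background subtraction), with control spots and spots above 32768 given no weight. The 2 spots of a probe were averaged. Of 6388 gene probes 5326 carry a symbol, 58 of them updated through the RefSeq gene table. One fit with 11 condition terms and a dye term to all 22 arrays (lmFit, eBayes) gave p-values adjusted by Benjamini-Hochberg. The dye term coincides with the array letter and so acts as a replicate block. Isozyme differences were added as 2 rows to the table before the fit. The number of arrays limits the precision. Median intensities were 210 to 527 in Cy5 and 195 to 394 in Cy3. The script was tested on simulated data.

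Named were the 10 genes, each further listed pyrimidine gene called in at least 1 comparison, the strain check genes, and the 3 genes most correlated with the 2 of the 10 with the highest and lowest mean in heat shock. The members and lists were chosen with earlier results of these data known. A search for promoter motifs was not run, as promoter sequences were not used here.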

Additional observations from a re-analysis of the deposited data

Results flagged for a closer look

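For 4 of the 10 genes the effect of heat shock against the reference differed between 60 and 15 min by a test of the difference itself, where 5.65% of all probes were called higher and 5.09% lower. URA2 was higher at 60 min by 1.48 on the log2 scale and URA1 by 1.24. URA10 was lower at 60 min, with a difference of -0.92, and URA8 likewise, with -0.83. Each difference had the same sign under all 5 scalings, but not each kept its call. URA8 lost its call with global loess, median centring and external control scaling, and URA10 with external control scaling. Relative to the median of all probes, which moved to 0.28 with external control scaling, the 4 differences were 1.47, 1.53, -0.98 and -0.51 under that setting.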

How the results depend on the processing

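Of 2010 values of the 10 genes under alternative settings, 1870 kept their direction and side of the threshold, 24 lost a call, 114 gained one and 2 reversed, and 53 uncalled values changed sign. Reversed was URA7 at 30 min of heat shock, at -0.26 with median centring and -0.27 with external control scaling. Calls lower at 60 against 15 min of heat shock, 2 of 10, were 1 with global loess, 1 with median centring, 0 with external control scaling and 0 with a 2-fold limit, and calls higher, 2 of 10, were 6 with external control scaling. Calls lower in cold shock, 3 of 50, were 1 with median centring (URA8 at 60 min), 0 with external control scaling and 1 with a 2-fold limit. With no fold limit the counts were 32 lower and 17 higher in heat shock, 30 higher and 14 lower in cold shock, 7 lower in the 37 °C culture and 7 higher at 60 against 15 min, where 71 to 83.2% of all probes passed in heat shock, 59.4 to 66.8% in cold shock, 68.7% in the 37 °C culture and 68.8% for 60 against 15 min. With cold shock at 60 min as the baseline of heat shock, 13 values were higher. The share of all probes called with that baseline is not given here. URA7, URA8 and URA10 gained calls higher, and FUR1 gained a call lower at 5 min. At 60 min of cold shock URA7, URA8 and URA10 stood at -0.76, -0.47 and -0.40 against the reference. That baseline raises their heat shock values by as much. In settings chosen after seeing the data, URA8 minus URA7 at 15 min of heat shock, 0.61 and uncalled, was 1.30 with median centring and 1.36 with external control scaling, both called, and at 45 min, -0.04, it reversed to 0.86 and 0.88. Causes were not tested, apart from the fold limit, which acts by its construction. Leaving out each array changed none of the counts in heat shock (14 lower and 6 higher) or in cold shock against 0 min (16 higher and 3 lower), in the 37 °C culture or at 60 against 15 min, and added 1 call, URA7 lower at 60 min of cold shock against the reference, at -0.80 without array b. Without the dye term, hence with no replicate block, the 14 calls lower and 6 higher in heat shock and every other call of the 10 genes stayed, with 5593 calls over all probes and comparisons in both fits. Each condition has 1 array of each dye orientation, so this setting could change the p-values but not the log2 values. The same holds for fits to only the arrays compared and to only probes well above background. Each of these settings kept all 140 of its values, which are among the 1870. External control scaling moved the median of all probes to 0.19 and 0.20 at 45 and 60 min of heat shock, 0.28 for 60 against 15 min and 0.21 for 60 min against the 37 °C culture. Probes higher and lower under it were 349 and 202 at 45 min (220 and 97 in the reported fit), 324 and 81 at 60 min (199 and 75), 399 and 752 at 15 min (475 and 498), 774 and 117 for 60 against 15 min (301 and 271), 138 and 8 for 60 min against the 37 °C culture (73 and 19), 110 and 89 in that culture (118 and 62), and, in cold shock, 119 and 184 at 45 min (56 and 222), 270 and 155 at 60 min (45 and 187) and 50 and 68 at 60 min against the reference (35 and 97). With median centring they were 223 and 270 at 45 min and 174 and 260 at 60 min of heat shock, 198 and 311 for 60 against 15 min, 54 and 44 for 60 min against the 37 °C culture, and 106 and 193 at 60 min of cold shock. URA10, the dimmest of the 10 probes, had sample signals of 76.0 to 447 units over a background of 40.5 to 47.5.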
